A study of Mus musculus with 20 samples.

Results

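Amino acids cross cell and lysosome membranes on carrier proteins of the solute carrier (SLC) families. The 58 genes described here belong to 7 such families and were measured in cultured mouse eosinophils, the granulocytes of allergic inflammation. The members were chosen by name: every probe set of the deposited table with exactly 1 gene symbol that starts with Slc1a, Slc3a, Slc6a, Slc7a, Slc36a, Slc38a or Slc43a, Slc7a11 left out. The rule found 61 genes of 17771, each with 1 probe set. The genes Slc6a19os, Slc7a6os and Slc36a1os, which lie opposite a transporter gene and encode no transporter, account for 3 of them.

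Eosinophils were grown from bone marrow of Dusp5-/- mice (KO) and of Dusp5+/+ mice (WT), from 5 mice per genotype. The gene's product, a phosphatase of the nucleus, switches off the MAP kinases ERK1 and ERK2. Cells on day 12 of culture received 25 ng/ml IL-33, an alarm cytokine, for 4 hours or were left in medium. RNA of each sample went onto 1 array, so that 20 arrays form 4 groups of 5 with the same mice in the IL-33 and the untreated group of a genotype: KO with IL-33, KO untreated, WT with IL-33 and WT untreated. The sources used here do not say how the Dusp5 gene was disrupted or how old the mice were. Precision is limited by the 5 arrays per group.

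The genotype labels were checked on Dusp5 itself. Its log2 level was 4.68 to 5.15 on KO IL-33 arrays and 4.02 to 4.85 on KO untreated arrays, against 9.28 to 10.23 on WT IL-33 arrays and 7.85 to 8.51 on WT untreated arrays. No array went against its label. The eosinophil granule genes Epx, Prg2 and Prg3 averaged between 12.73 and 13.82 in each group, and all 8 eosinophil markers on the array, of 12 listed, exceeded the array's 40th percentile everywhere. With IL-33, 1 of the 8 rose and 3 fell in both genotypes, or 50% called, against 52.2% of all tested genes in KO and 42.7% in WT cells. Markers of other myeloid cells were also present, with all 10 measured neutrophil markers and all 10 measured markers of monocytes, macrophages and dendritic cells above that percentile on enough arrays to be tested. None of the neutrophil markers passed the IL-33 comparison (limma, with 1 in KO and 0 in WT cells at an unadjusted p under 0.05). Of lymphocyte markers 0 of 2 tested rose in KO and 1 in WT cells, and of erythroid and megakaryocyte markers 1 of 3 fell in KO and 0 in WT cells. Both arrays of WT mouse 2 and both of WT mouse 3 resembled their groups a little less than the rest: their mean correlation with the other arrays of the group was 0.984 for mouse 2 and 0.987 for mouse 3, against at least 0.989 for every other array.

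As background, amino acid carriers work in a few modes. Heteromeric transporters pair a heavy chain, Slc3a1 or Slc3a2, with a light chain of the Slc7 family that does the transport. Slc7a5 and Slc7a8 exchange large neutral amino acids such as leucine in this way, and Slc43a1 and Slc43a2 carry similar substrates alone. Slc7a1 to Slc7a3 bring in arginine and lysine, Slc1a5 exchanges glutamine and other neutral amino acids, and Slc38a1 and Slc38a2 take up glutamine with sodium. Slc38a9 sits on lysosomes, where it signals arginine to the growth kinase complex mTORC1. The Slc6 family also holds carriers of amines, taurine, creatine, betaine and GABA. In myeloid cells arginine uptake feeds nitric oxide synthase and arginase.

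Of the 58 transporter genes, 38 were bright enough to be tested. A gene counted as measured when its log2 value exceeded the 40th percentile of its array on at least 5 of the 20, and as lying at the floor otherwise. This percentile ran from 3.56 to 3.68 over the arrays. Among the tested genes 34 exceeded the percentile on all 20 arrays. The 4 nearest the limit were Slc6a21 with 11 arrays, Slc38a5 with 12, Slc6a12 with 15 and Slc43a2 with 19. The 20 genes at the floor comprised Slc3a1, the heavy chain of the renal cystine carrier, and its light chain Slc7a9. Others at the floor were Slc7a10, Slc7a12, Slc7a13, Slc7a14 and Slc7a15, the glutamate carriers Slc1a1, Slc1a3 and Slc1a6, and Slc38a4. The rest were the glycine carrier Slc6a5, the GABA carrier Slc6a11, and Slc6a14, Slc6a15, Slc6a16, Slc6a18, Slc6a19, Slc6a20a and Slc6a20b. Of these 20, 16 were above the percentile on no array, Slc6a18, Slc6a19 and Slc7a10 on 1 and Slc7a13 on 2. A gene passes the filter through the group in which it is bright, so the tested genes are not a neutral sample of the 58. Slc6a21 passed it only through its IL-33 arrays.

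**Figure D1:**
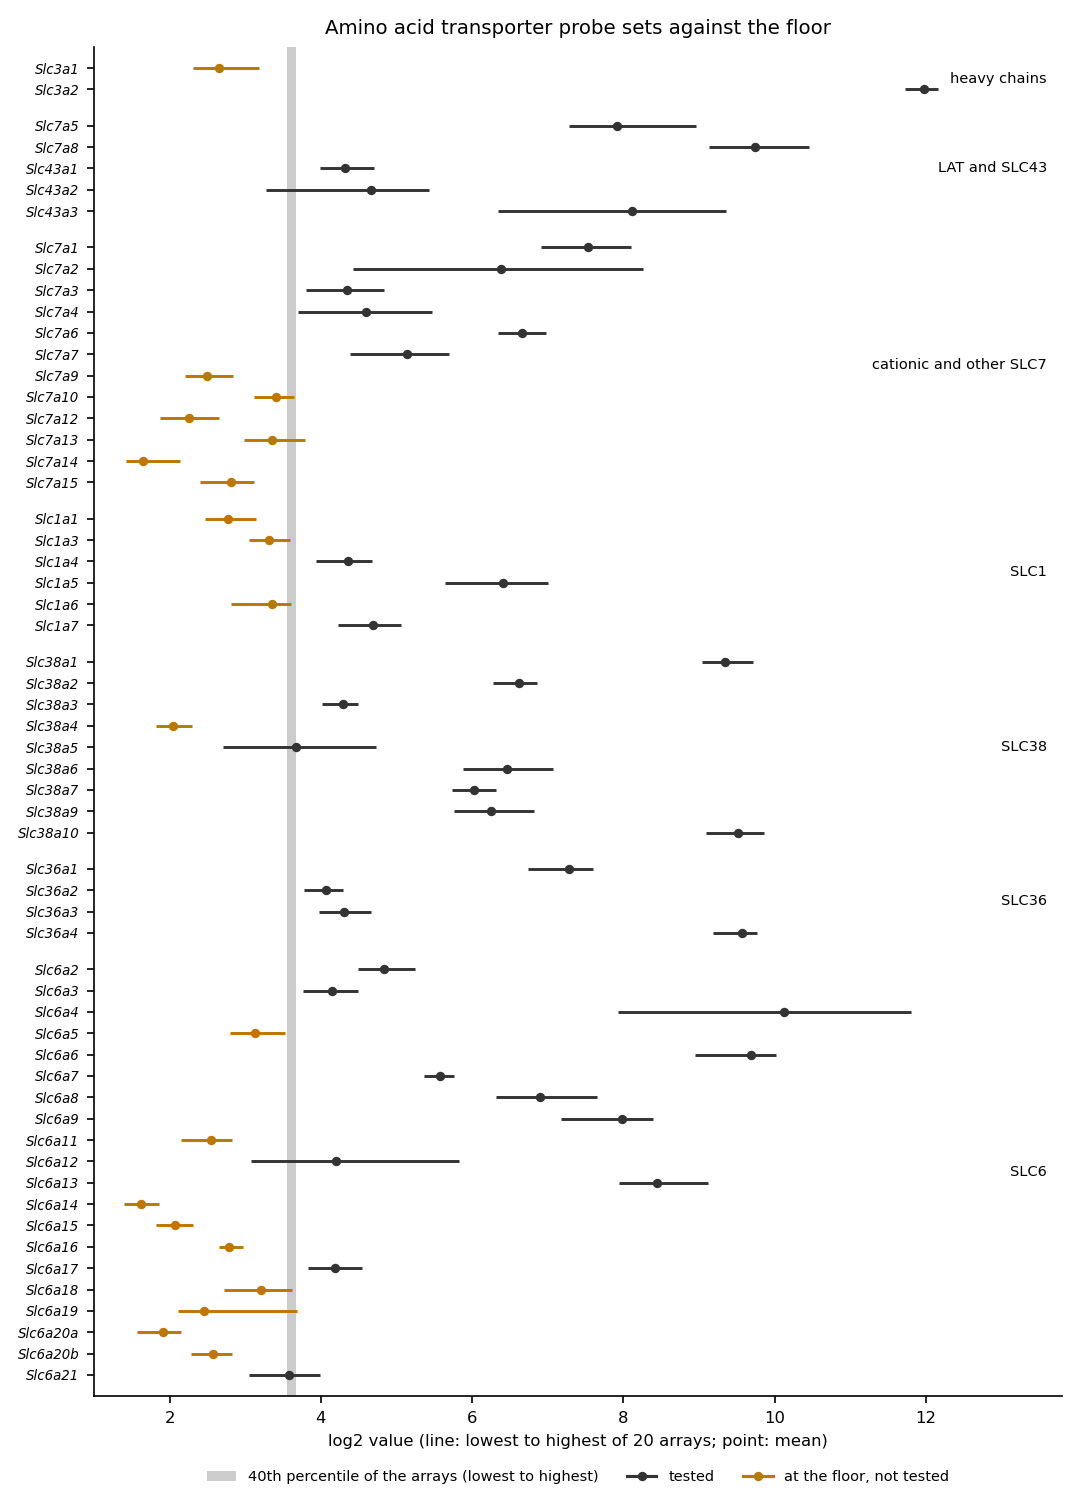
Log2 value of each of the 58 transporter probe sets, one row per gene grouped by family, with the line from the lowest to the highest of 20 arrays and the point at their mean. The 20 rows in amber stay at or left of the grey band, which spans the arrays' 40th percentiles from 3.56 to 3.68, on nearly all arrays, and the wide rows include Slc6a4, Slc7a2 and Slc43a3.

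By family, all 5 genes of a group that joins Slc7a5 and Slc7a8 with the Slc43 genes were tested (Slc7a5, Slc7a8, Slc43a1, Slc43a2 and Slc43a3), all 4 Slc36 genes, 8 of 9 Slc38 genes, 6 of 12 other Slc7 genes, 3 of 6 Slc1 genes, 11 of 20 Slc6 genes and 1 of 2 heavy chains. Levels of different probe sets are not compared here, since each probe set has its own response.

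IL-33 moved the transporters in both directions. In KO cells 10 of the 38 tested genes rose and 9 fell at an adjusted p under 0.05 (limma over all 20 arrays, Benjamini-Hochberg over 11767 genes). Among all tested genes 52.2% were called in KO cells, 18.9% as higher and 33.2% as lower, so the 50% called among the transporters lay near that background, with 26.3% higher and 23.7% lower. In WT cells 11 rose and 8 fell, again 50% of the 38, where the background was 42.7%, with 16.1% higher and 26.7% lower. The transporters' shares in WT cells were 28.9% higher and 21.1% lower. The median log2 change of the 38 was 0.05 in KO cells and 0.01 in WT cells, against -0.08 and -0.05 over all tested genes in the same order of genotypes. A further quantile normalization, which recentres the arrays, called 10 higher and 7 lower in KO cells and 10 higher and 9 lower in WT cells. It also moved the share of all calls that were higher to 46.3% in KO cells and 45.6% in WT cells, against 36.3% and 37.6% as deposited.

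Changes of at least 2-fold were few. In KO cells 4 transporters rose that far (Slc7a2, Slc6a4, Slc6a12 and Slc43a3) and none fell, where the background was 3.17% higher and 3.04% lower. In WT cells the same 4 rose, and Slc43a2 fell, where the background was 2.69% higher and 1.65% lower. The IL-33 and untreated arrays did not overlap for 16 of 38 genes in KO cells, against 38.5% of all tested genes, and for 13 of 38 in WT cells, against 28.3%. All 10 genes that rose in KO cells were among the 11 of WT cells, and all 8 that fell in WT cells were among the 9 of KO cells. Over all tested genes 72.3% of the KO list of rises and 85.2% of the WT list were shared, and 75.9% of the KO list of falls and 94.6% of the WT list.

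**Figure D2:**
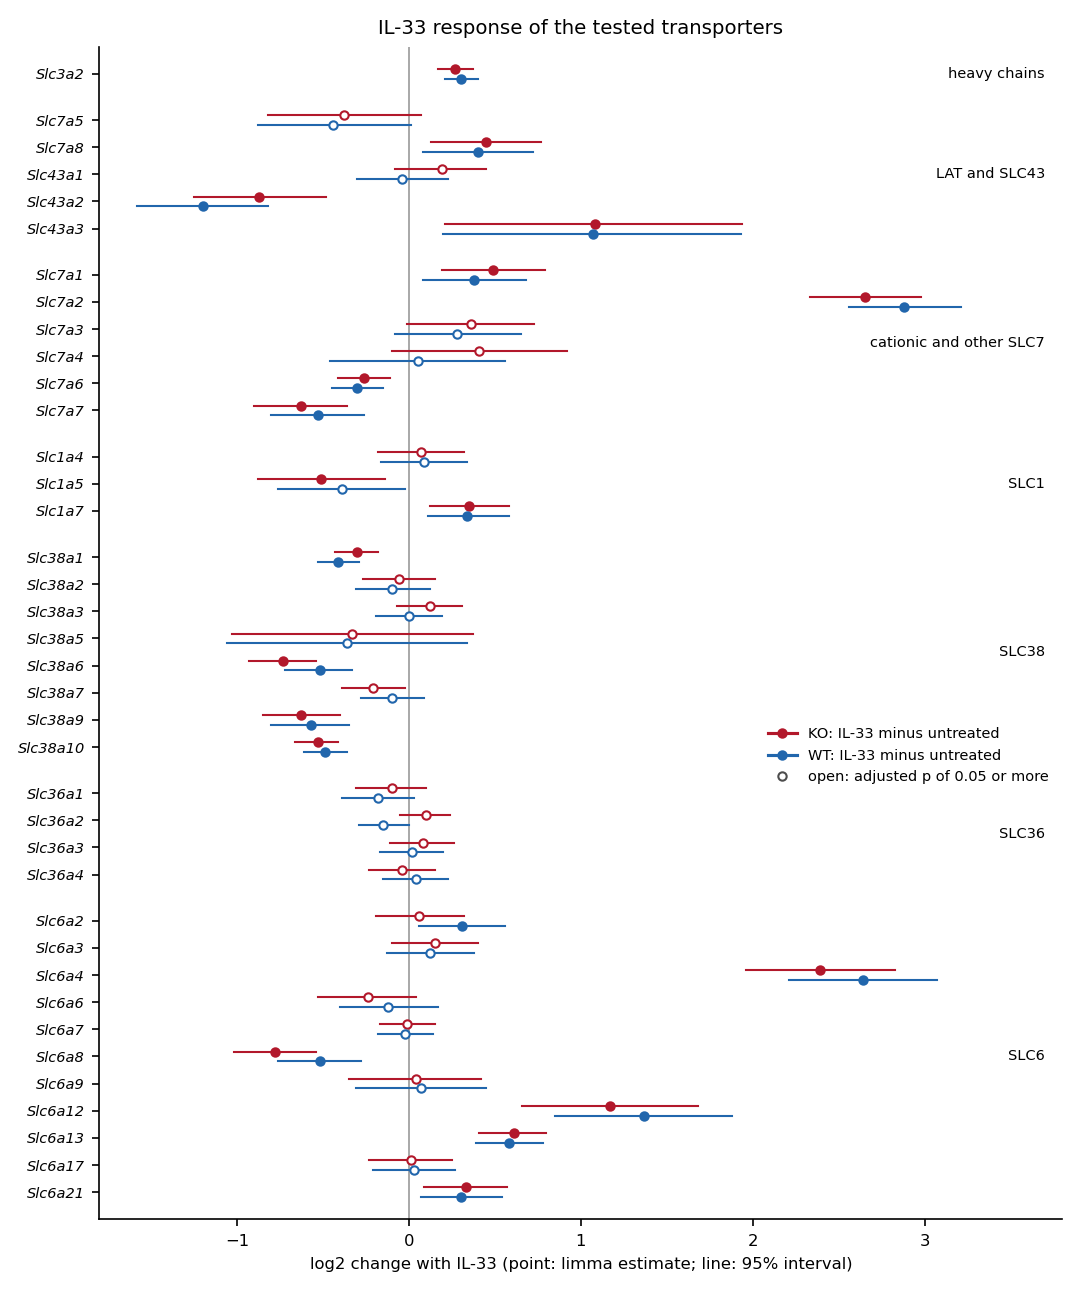
Log2 change with IL-33 (IL-33 minus untreated) of the 38 tested transporters, red for KO and blue for WT cells, with the limma estimate as a point and its 95% interval as a line. Filled points passed an adjusted p of 0.05, and Slc7a2 and Slc6a4 stand far to the right in both genotypes, with changes of 2.39 to 2.88.

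The largest change belonged to Slc7a2, which encodes CAT2, an importer of arginine and other cationic amino acids. Its log2 values were 7.87, 7.56, 7.92, 8.06 and 8.26 on KO IL-33 arrays, against 5.20, 4.99, 5.46, 5.39 and 5.37 on KO untreated arrays. WT IL-33 arrays had 7.80, 7.51, 7.96, 7.44 and 7.24, against 4.61, 4.93, 5.12, 4.45 and 4.43 on WT untreated arrays. Every IL-33 array lay above every untreated one in both genotypes, and no mouse changed by less than 2.46. Slc7a2 rose by 2.65 ± 0.16 in KO cells, or 6.29-fold (SE, adjusted p = 2.8e-11), and by 2.88 ± 0.16 in WT cells, or 7.37-fold (adjusted p = 1.4e-11). Because each array measures a whole culture, more RNA per cell and more cells that carry the RNA cannot be told apart here. Markers of monocytes, macrophages and dendritic cells did not move as one list beside it: 2 rose and 3 fell of 10 in KO cells, and 2 rose and 2 fell in WT cells. The 50% called in KO and 40% in WT cells lay near the 52.2% and 42.7% of all tested genes. The mean log2 level of the 10 markers ran from 7.83 to 8.42 on KO IL-33 arrays and 8.03 to 8.53 on KO untreated arrays, and from 7.93 to 8.37 on WT IL-33 arrays and 7.88 to 8.50 on WT untreated arrays. Csf1r, the receptor of a macrophage growth factor, rose by 0.54 ± 0.13 in KO and 0.62 ± 0.13 in WT cells (adjusted p = 0.00135 and 5.1e-04), and Adgre1, the F4/80 antigen that eosinophils also carry, by 0.66 ± 0.18 and 0.70 ± 0.18 (0.00491 and 0.00439). Ccr2, a chemokine receptor of monocytes, fell by 1.17 ± 0.27 and 0.84 ± 0.27 (0.00112 and 0.0162), and Cx3cr1, another, by 0.59 ± 0.16 and 0.82 ± 0.16 (0.00377 and 2.8e-04). The lysosomal glycoprotein gene Cd68 fell by 0.49 ± 0.12 in KO cells (0.00142) and had -0.23 ± 0.12 in WT cells (0.115). The part of these cells in the Slc7a2 change was not tested.

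The constitutive arginine importer Slc7a1 (CAT1) rose as well, by 0.49 ± 0.15 in KO cells (adjusted p = 0.00769) and by 0.38 ± 0.15 in WT cells (adjusted p = 0.0407). All 5 mice of each genotype changed upwards, by 0.29 to 0.79 in KO and by 0.06 to 0.66 in WT mice. The KO groups did not overlap, while the WT groups did. The WT call was lost on leaving out any of WT IL-33 replicates 1, 3 and 5 or WT untreated replicates 1, 2, 4 and 5, with changes of 0.27 to 0.39. Slc7a3, the third cationic importer, had 0.36 ± 0.18 in KO and 0.28 ± 0.18 in WT cells without passing the test, and Slc7a4, whose probe set name marks probes that may match other transcripts, had 0.41 ± 0.24 and 0.05 ± 0.24. In the paired fit with a term for each mouse Slc7a3 passed in both genotypes (adjusted p = 0.00362 in KO and 0.0165 in WT) and Slc7a4 in KO cells (0.0128).

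The remaining tested Slc7 carriers of this group fell. Slc7a7 and Slc7a6 encode y+LAT1 and y+LAT2, light chains that export cationic amino acids in exchange for neutral ones with sodium. Slc7a7 had log2 values of 4.42, 4.79, 4.38, 4.68 and 5.04 on KO IL-33 arrays, against 5.32, 5.14, 5.02, 5.49 and 5.49 on KO untreated arrays. On WT arrays they were 5.03, 4.99, 5.17, 5.29 and 4.70 with IL-33, against 5.69, 5.66, 5.56, 5.53 and 5.39 untreated. The WT groups were apart, and in KO cells only the IL-33 array of mouse 5 reached into the untreated range, above the untreated array of mouse 3. The log2 change of Slc7a7 was -0.63 ± 0.13 in KO cells and -0.53 ± 0.13 in WT cells (adjusted p = 3.8e-04 and 0.0024). Slc7a6 fell by 0.26 ± 0.07 in KO cells and by 0.30 ± 0.07 in WT cells (adjusted p = 0.00462 and 0.00211), lower in 5 of 5 mice of each genotype. The KO change of Slc7a6 was only -0.10 after the further quantile normalization (adjusted p = 0.216). The gene opposite it, Slc7a6os, had -0.29 ± 0.12 in KO and -0.30 ± 0.12 in WT cells (adjusted p = 0.0537 and 0.0517) and did not pass, nor did Slc36a1os with 0.15 ± 0.12 and 0.11 ± 0.12, while Slc6a19os lay at the floor.

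The promoter windows of 2 SLC7 genes that changed in opposite directions are shown for comparison. The RefSeq promoter table (GRCm38.p6) holds 250 bases before and 50 after annotated starts for 41 of the 58 transporters, with 62 windows in all, and has no entry for Slc7a2. Searched on both strands were TGATGNAA (the C/EBP-ATF response element of the amino acid response), CACGTG (the E-box bound by Myc), TGANTCA (AP-1), GGGANTTNC (NF-kB) and GGAAGT (ETS). Each capital run below is such a match, and no 2 of them overlap. The Slc7a1 window lies at chr5:148399855-148400154 on the minus strand, with an AP-1 match 123 bases before the start, and the other Slc7a1 window had no match. The Slc7a7 window, the first of 5, lies at chr14:54417895-54418194 on the minus strand, with C/EBP-ATF matches 141 and 1 bases before the start and an ETS match 216 bases before it. Some Slc7a7 windows not shown overlap the one shown and each other. They hold the same NF-kB match, 124 or 147 bases before the start depending on the window, and another ETS match. Their C/EBP-ATF match is the one shown 1 base before the start.
Slc7a1: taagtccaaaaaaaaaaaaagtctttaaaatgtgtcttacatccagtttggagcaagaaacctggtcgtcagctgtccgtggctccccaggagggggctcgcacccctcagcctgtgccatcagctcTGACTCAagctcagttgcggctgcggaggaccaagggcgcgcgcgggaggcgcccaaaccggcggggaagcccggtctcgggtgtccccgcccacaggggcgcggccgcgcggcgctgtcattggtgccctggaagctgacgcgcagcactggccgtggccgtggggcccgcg
Slc7a7: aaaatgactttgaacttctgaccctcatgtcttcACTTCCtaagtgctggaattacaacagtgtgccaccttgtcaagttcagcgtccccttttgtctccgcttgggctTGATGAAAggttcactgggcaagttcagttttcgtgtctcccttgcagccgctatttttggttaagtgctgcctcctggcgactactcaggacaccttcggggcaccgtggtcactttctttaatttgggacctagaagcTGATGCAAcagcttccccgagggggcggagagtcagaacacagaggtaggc
A match is a run of letters and not evidence of binding. AP-1 letters occur in 7.81% of all 32851 windows and in 14.5% of the 62 transporter windows, C/EBP-ATF letters in 3.97% and 6.45%, NF-kB letters in 4.26% and 11.3%, E-box letters in 7.15% and 14.5%, and ETS letters in 23.8% and 14.5%. Windows of 1 gene overlap, so the 62 are not independent.

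The heavy chain Slc3a2 (CD98, 4F2hc), the partner of Slc7a5, Slc7a6, Slc7a7, Slc7a8 and Slc7a11, changed little but with little spread. The log2 values of Slc3a2 were 12.14, 12.11, 12.16, 12.15 and 12.11 on KO IL-33 arrays, against 11.88, 11.85, 11.89, 11.86 and 11.82 on KO untreated arrays. The WT values were 12.09, 12.07, 12.07, 12.14 and 12.15 with IL-33, against 11.80, 11.77, 11.73, 11.85 and 11.84 untreated. The groups were apart in both genotypes, and each of the 10 mice changed by between 0.26 and 0.34. Slc3a2 rose by 0.27 ± 0.05 in KO cells, or 1.21-fold, and by 0.30 ± 0.05 in WT cells, or 1.24-fold (adjusted p = 6.6e-05 and 2.6e-05). The other heavy chain, Slc3a1, stayed at the floor on all arrays.

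Carriers of large neutral amino acids went different ways. Slc43a2 (LAT4), which carries branched-chain amino acids, methionine and phenylalanine without a heavy chain, fell most among all members. Its log2 values were 4.68, 4.45, 4.22, 4.56 and 3.96 on KO IL-33 arrays, against 5.29, 5.35, 5.30, 5.37 and 4.89 on KO untreated arrays. In WT cells, IL-33 arrays had 4.54, 4.14, 3.28, 3.84 and 3.79, against 5.28, 5.44, 4.84, 4.92 and 5.11 on untreated arrays. All IL-33 arrays lay below all untreated arrays of the genotype, and the lowest, WT mouse 3, was under the floor of its array. The log2 change was -0.87 ± 0.18 in KO cells (1.82-fold lower, adjusted p = 5.5e-04) and -1.20 ± 0.18 in WT cells (at least 2.18-fold lower with the array under the floor set to it, adjusted p = 2.7e-05). Slc43a1 (LAT3) had 0.19 ± 0.13 and -0.04 ± 0.13 in the same order, without passing.

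The heteromeric exchangers Slc7a8 (LAT2) and Slc7a5 (LAT1) moved apart in sign. Slc7a8 rose by 0.45 ± 0.15 in KO cells and by 0.40 ± 0.15 in WT cells (adjusted p = 0.0188 and 0.0433), higher in all 5 mice of each genotype. The groups overlapped, and the KO call was lost without KO IL-33 replicates 2 or 5 or KO untreated replicates 1 or 3. The WT call was lost without WT IL-33 replicates 2, 4 or 5 or WT untreated replicates 1, 3, 4 or 5, and these changes ran from 0.32 to 0.42. Slc7a5 had log2 values of 7.67, 7.28, 7.73, 7.56 and 7.79 on KO IL-33 arrays, against 8.05, 7.71, 8.23, 7.92 and 8.0 on KO untreated arrays. WT IL-33 arrays had 7.84, 7.38, 8.66, 7.47 and 7.76, against 8.25, 7.71, 8.96, 8.02 and 8.35 on WT untreated arrays. Each mouse had the lower value with IL-33, but mice differed so much that the groups overlapped. The change of Slc7a5 was -0.38 ± 0.21 in KO and -0.44 ± 0.21 in WT cells and did not pass (adjusted p = 0.145 and 0.107). Fitted without the WT arrays, the KO change passed (0.0157). Within mice it was -0.21 to -0.50 in KO and -0.30 to -0.60 in WT, and in the paired fit the adjusted p was 9.8e-05 in KO and 3.9e-05 in WT cells. It also passed in WT cells without WT IL-33 replicate 3 (-0.65) or without WT untreated replicate 2 (-0.57).

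Slc43a3, whose protein was described in human cells as a carrier of purine nucleobases, showed the widest spread between mice. The log2 values of Slc43a3 were 9.12, 7.60, 8.95, 7.87 and 7.71 on KO IL-33 arrays, against 8.13, 6.35, 7.97, 6.61 and 6.79 on KO untreated arrays. On WT arrays they were 9.34, 8.06, 9.35, 9.13 and 9.36 with IL-33, against 8.25, 6.68, 8.53, 7.95 and 8.51 untreated. KO mice 1 and 3 were high with and without IL-33 and WT mouse 2 was low both times, so that the groups overlapped although each mouse rose. Slc43a3 rose by 1.08 ± 0.41 in KO cells and by 1.07 ± 0.41 in WT cells (adjusted p = 0.0348 and 0.0439), and the change within a mouse ran from 0.92 to 1.26 in KO and from 0.82 to 1.39 in WT. In the paired fit the SE was 0.08 and the adjusted p was 2.3e-07 in KO and 3.9e-07 in WT cells. Without the pairing, the KO call was lost without any of KO IL-33 replicates 1 and 3 and KO untreated replicates 2, 4 and 5. The WT call was lost without any of WT IL-33 replicates 1, 3, 4 and 5 and WT untreated replicates 1, 2 and 4, and the change was lowest, 0.74, without untreated replicate 2.

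**Figure D3:**
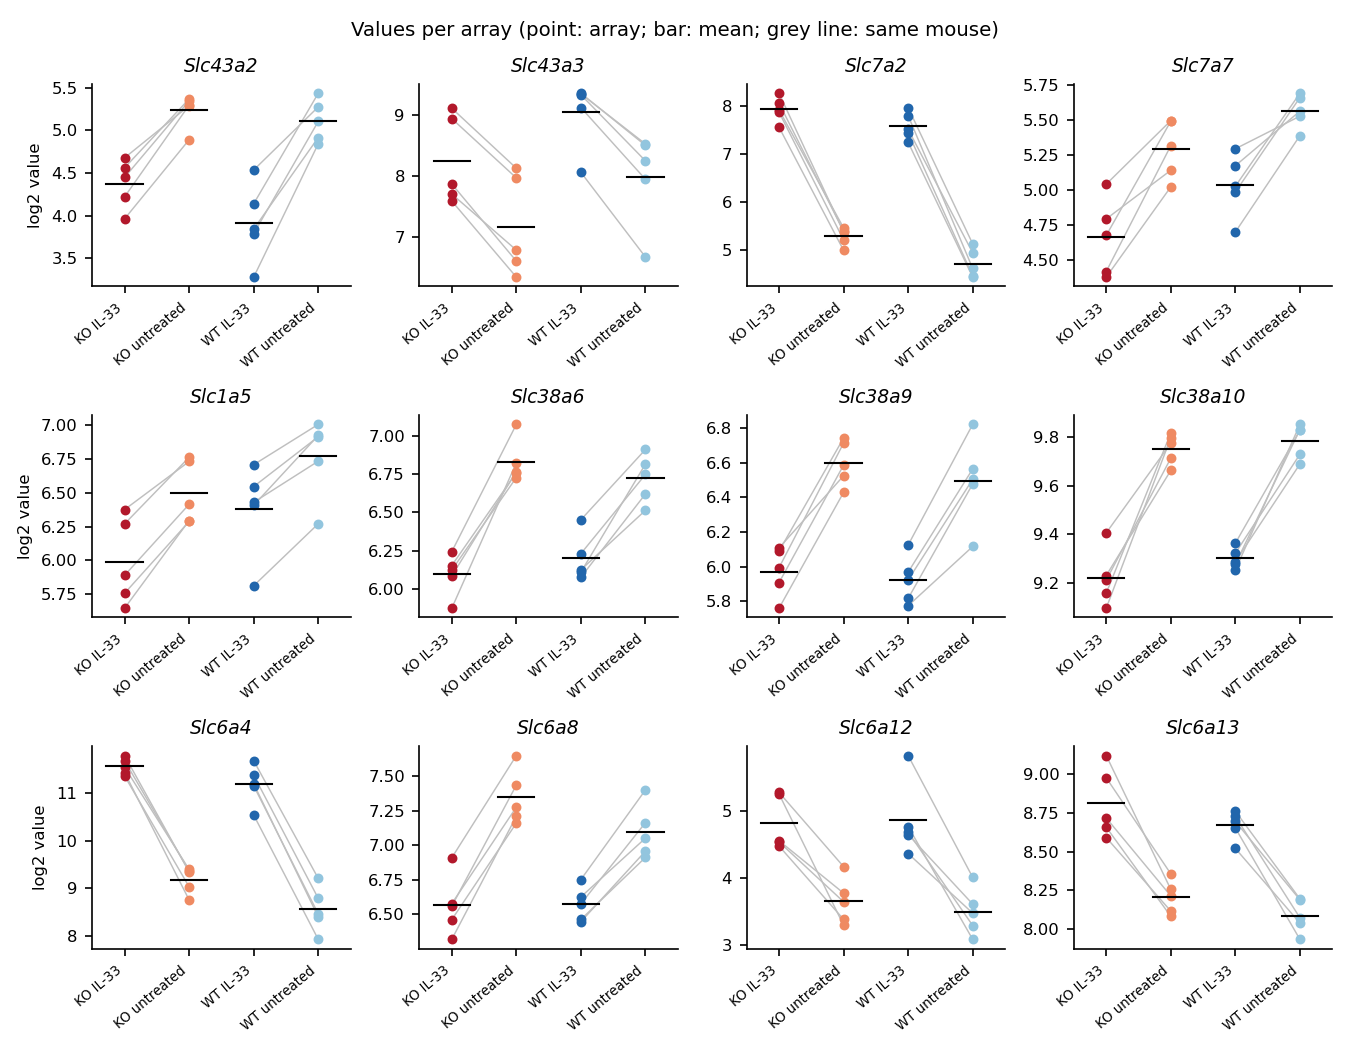
Log2 value on every array for the 12 transporters called with a change of at least 0.5 in either genotype, in the order KO IL-33, KO untreated, WT IL-33 and WT untreated, with a bar at the group mean and a grey line joining the arrays of 1 mouse. The lines of Slc7a2 and Slc6a4 are steep and nearly parallel, and those of Slc43a3 and Slc1a5 are nearly parallel but start from levels that differ widely between mice.

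Of the Slc1 carriers, Slc1a5 (ASCT2), an exchanger of glutamine, was the one with a fall. Its log2 values were 6.38, 5.65, 6.27, 5.76 and 5.89 on KO IL-33 arrays, against 6.73, 6.30, 6.76, 6.29 and 6.42 on KO untreated arrays. The WT values were 6.55, 5.81, 6.71, 6.43 and 6.41 with IL-33, against 6.92, 6.27, 7.01, 6.73 and 6.93 untreated. The value was lower with IL-33 in each of the 10 mice, and the groups overlapped in both genotypes. Slc1a5 fell by 0.51 ± 0.18 in KO cells (adjusted p = 0.0193) and had -0.39 ± 0.18 in WT cells (adjusted p = 0.0805). The difference between these changes was -0.12 ± 0.25 (adjusted p = 0.999), so the genotypes are not shown to differ. In the paired fit Slc1a5 passed in both (adjusted p = 3.3e-06 in KO and 4.9e-05 in WT). Without the pairing the KO call was lost without KO IL-33 replicates 2 or 4 or KO untreated replicates 1 or 3, and after the further quantile normalization (adjusted p = 0.0836). The WT change passed without WT IL-33 replicate 3 or without WT untreated replicate 2. Slc1a7, the glutamate carrier of the retina, rose by 0.35 ± 0.11 in KO and 0.34 ± 0.11 in WT cells (adjusted p = 0.0119 and 0.0165) at group means between 4.52 and 4.87. WT mouse 1 went the other way (-0.29), and the WT call of Slc1a7 was lost without both arrays of WT mouse 2 or of WT mouse 3. Slc1a4 (ASCT1), a serine and alanine exchanger, had 0.07 ± 0.12 and 0.09 ± 0.12.

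The Slc38 family, sodium-coupled carriers of neutral amino acids, held 4 falls and no rise in either genotype among 8 tested genes. Of all tested genes 33.2% fell in KO and 26.7% in WT cells. Its median log2 change was -0.32 in KO cells and -0.39 in WT cells, against -0.08 and -0.05 over all tested genes. Slc38a6 had 6.12, 6.09, 5.88, 6.24 and 6.15 on KO IL-33 arrays, against 6.73, 6.77, 6.82, 7.07 and 6.76 on KO untreated arrays. In WT cells, IL-33 arrays had 6.23, 6.45, 6.13, 6.11 and 6.08, against 6.75, 6.91, 6.51, 6.82 and 6.62 on untreated arrays. The groups did not overlap, and Slc38a6 fell by 0.73 ± 0.09 in KO cells and by 0.52 ± 0.09 in WT cells (adjusted p = 1.9e-06 and 1.4e-04).

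Slc38a9, the lysosomal arginine sensor, had log2 values of 6.11, 5.99, 5.76, 5.91 and 6.09 on KO IL-33 arrays, against 6.52, 6.71, 6.43, 6.58 and 6.74 on KO untreated arrays. WT IL-33 arrays had 5.92, 6.13, 5.78, 5.97 and 5.82, against 6.50, 6.82, 6.12, 6.56 and 6.48 on WT untreated arrays. The KO groups were apart, and in WT cells the IL-33 array of mouse 2 lay just above the untreated array of mouse 3. Slc38a9 fell by 0.63 ± 0.11 in KO and by 0.57 ± 0.11 in WT cells (adjusted p = 6e-05 and 2.2e-04).

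Slc38a10 had log2 values of 9.16, 9.23, 9.10, 9.21 and 9.41 on KO IL-33 arrays, against 9.82, 9.66, 9.80, 9.71 and 9.78 on KO untreated arrays. On WT arrays they were 9.29, 9.32, 9.25, 9.28 and 9.36 with IL-33, against 9.69, 9.73, 9.85, 9.83 and 9.83 untreated. No IL-33 array reached the untreated range, and Slc38a10 fell by 0.53 ± 0.06 in KO and by 0.49 ± 0.06 in WT cells (adjusted p = 4.6e-07 and 2.4e-06). The glutamine importer Slc38a1 (SNAT1) fell by 0.30 ± 0.06 in KO and by 0.41 ± 0.06 in WT cells (adjusted p = 1.9e-04 and 9.7e-06), again with groups apart, on a probe set whose name marks probes shared by several transcripts. Its relative Slc38a2 (SNAT2), known as a transporter raised by amino acid starvation, had -0.06 ± 0.10 and -0.10 ± 0.10, and the lysosomal glutamine exporter Slc38a7 had -0.21 ± 0.09 and -0.10 ± 0.09. Slc38a3 had 0.12 ± 0.09 and 0.00 ± 0.09, and Slc38a5, above the floor on 12 arrays, -0.33 ± 0.34 and -0.36 ± 0.34. In the paired fit Slc38a5 passed in both genotypes (adjusted p = 0.00488 in KO and 0.00312 in WT), and Slc38a7 in KO cells (0.0113).

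None of the 4 proton-coupled Slc36 carriers passed the test (limma) in either genotype, and 1, Slc36a2 in WT cells, had an unadjusted p under 0.05. Slc36a1 (PAT1), which exports small amino acids from lysosomes, had -0.10 ± 0.10 in KO and -0.18 ± 0.10 in WT cells, and Slc36a4 had -0.04 ± 0.09 and 0.04 ± 0.09. Slc36a3 had 0.08 ± 0.09 and 0.02 ± 0.09. Slc36a2 had 0.10 ± 0.07 in KO and -0.15 ± 0.07 in WT cells, and the WT change passed in the paired fit (adjusted p = 0.044).

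Among the Slc6 carriers 4 rose and 1 fell in KO cells and 5 rose and 1 fell in WT cells, of 11 tested. Rises made up 36.4% in KO and 45.5% in WT cells, against 18.9% and 16.1% of all tested genes. They include Slc6a21, which passed the filter only through its IL-33 arrays. Falls made up 9.09% in each genotype, against 33.2% and 26.7%. Slc6a4, the serotonin transporter of neurons, platelets and mast cells, changed most. The log2 values of Slc6a4 were 11.44, 11.80, 11.37, 11.69 and 11.55 on KO IL-33 arrays, against 8.75, 9.35, 9.03, 9.36 and 9.40 on KO untreated arrays. The WT values were 11.20, 11.69, 10.54, 11.38 and 11.16 with IL-33, against 8.40, 9.21, 7.92, 8.79 and 8.46 untreated. IL-33 and untreated arrays were far apart in both genotypes, and each mouse changed by 2.16 to 2.80. Slc6a4 rose by 2.39 ± 0.21 in KO cells, or 5.25-fold, and by 2.64 ± 0.21 in WT cells, or 6.24-fold (adjusted p = 9.2e-09 and 3.3e-09). Mast cell and basophil markers were present on these arrays: Cpa3 averaged 12.55 to 12.71 and Mcpt8 11.32 to 11.79 in the 4 groups, while Mcpt4 was above the floor on no array. Of the 7 tested markers 1 rose and 3 fell in KO cells, and 1 rose and 2 fell in WT cells. That is 57.1% called in KO and 42.9% in WT cells, near the 52.2% and 42.7% of all tested genes. The marker that rose was Ms4a2, a chain of the IgE receptor, by 0.91 ± 0.14 in KO and 0.65 ± 0.14 in WT cells (adjusted p = 1.8e-05 and 8.6e-04). Fcer1a, another chain of that receptor, fell by 0.48 ± 0.16 and 0.43 ± 0.16 (0.0153 and 0.0329), and the basophil protease gene Mcpt8 by 0.36 ± 0.08 and 0.33 ± 0.08 (0.00123 and 0.0036). Kit, the stem cell factor receptor, fell by 1.07 ± 0.31 in KO cells (0.00632) and had -0.43 ± 0.31 in WT cells (0.281). The mean log2 level of the 8 markers on the array ran from 7.47 to 7.75 on KO IL-33 and 7.59 to 7.80 on KO untreated arrays, and from 7.52 to 7.82 on WT IL-33 and 7.62 to 7.83 on WT untreated arrays. Of the erythroid and megakaryocyte markers, Pf4 averaged 11.33 to 11.46, Itga2b 10.13 to 10.43 and Klf1 4.72 to 5.42 in the 4 groups. Hba-a1 was above the floor on no array. Pf4 had -0.14 ± 0.14 in KO and 0.01 ± 0.14 in WT cells with IL-33, and Itga2b -0.17 ± 0.13 and -0.14 ± 0.13, without passing. Klf1 fell by 0.37 ± 0.15 in KO cells (adjusted p = 0.039) and had -0.20 ± 0.15 in WT cells (0.291). The difference between these changes of Klf1, -0.17 ± 0.21, did not pass (0.999). The part of any of these cells in the Slc6a4 change was not tested.

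The neighbours Slc6a13 and Slc6a12 on chromosome 6, carriers of GABA and of betaine and GABA, both rose. Slc6a12 had log2 values of 5.25, 4.56, 5.28, 4.54 and 4.48 on KO IL-33 arrays, against 3.29, 3.77, 4.17, 3.64 and 3.38 on KO untreated arrays. In WT cells, IL-33 arrays had 4.65, 4.36, 5.83, 4.77 and 4.68, against 3.61, 3.47, 4.01, 3.08 and 3.29 on untreated arrays. The groups were apart, with untreated values around the floor and 2 of 5 KO and 3 of 5 WT untreated arrays below it. Slc6a12 rose by 1.17 ± 0.25 in KO cells and by 1.37 ± 0.25 in WT cells (adjusted p = 5e-04 and 1.5e-04). With arrays under the floor set to it, that is at least 2.11-fold higher in KO and at least 2.27-fold higher in WT cells.

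Slc6a13 had 8.72, 8.59, 9.12, 8.98 and 8.66 on KO IL-33 arrays, against 8.21, 8.12, 8.26, 8.36 and 8.08 on KO untreated arrays. WT IL-33 arrays had 8.65, 8.69, 8.76, 8.73 and 8.52, against 7.93, 8.19, 8.20, 8.07 and 8.04 on WT untreated arrays. No group overlapped its partner, and Slc6a13 rose by 0.61 ± 0.09 in KO and by 0.58 ± 0.09 in WT cells (adjusted p = 1.6e-05 and 3.7e-05). Both genes have an NF-kB letter match in 1 window, and the windows are shown because the genes adjoin and moved together, with that of Slc6a4 as the larger rise. NF-kB letters are not confined to genes that rose. They also occur in windows of Slc7a7, which fell, of Slc36a4 and Slc6a17, which did not pass, and of Slc7a10, at the floor. The Slc6a12 window at chr6:121342324-121342623 (plus strand) has an NF-kB match 132 and an AP-1 match 58 bases before the start, and the other 4 windows of Slc6a12 have none. The Slc6a13 window at chr6:121303389-121303688 (plus strand) has an NF-kB match 77 bases before the start, and the other 2 have none. The Slc6a4 window at chr11:76998347-76998646 (plus strand) holds none of the letters searched, which says nothing about sites elsewhere.
Slc6a12: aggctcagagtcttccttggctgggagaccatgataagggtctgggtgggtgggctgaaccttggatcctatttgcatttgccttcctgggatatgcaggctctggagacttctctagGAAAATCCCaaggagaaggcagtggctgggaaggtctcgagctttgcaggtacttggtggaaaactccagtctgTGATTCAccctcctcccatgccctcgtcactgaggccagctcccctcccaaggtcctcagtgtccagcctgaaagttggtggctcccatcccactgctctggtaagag
Slc6a13: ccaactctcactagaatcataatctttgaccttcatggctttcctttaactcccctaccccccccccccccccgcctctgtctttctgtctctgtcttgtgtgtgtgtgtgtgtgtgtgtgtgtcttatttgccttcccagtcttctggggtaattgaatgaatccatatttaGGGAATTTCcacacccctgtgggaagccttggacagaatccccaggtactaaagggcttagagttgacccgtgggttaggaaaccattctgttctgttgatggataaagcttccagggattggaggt
Slc6a4: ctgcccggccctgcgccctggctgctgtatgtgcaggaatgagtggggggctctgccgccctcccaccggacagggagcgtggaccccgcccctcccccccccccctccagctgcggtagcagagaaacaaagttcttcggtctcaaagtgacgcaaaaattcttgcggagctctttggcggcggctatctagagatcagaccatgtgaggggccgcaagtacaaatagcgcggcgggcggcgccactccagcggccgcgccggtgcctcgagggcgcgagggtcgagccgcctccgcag

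The creatine transporter Slc6a8 fell. Its log2 values were 6.46, 6.58, 6.32, 6.56 and 6.91 on KO IL-33 arrays, against 7.16, 7.27, 7.21, 7.43 and 7.65 on KO untreated arrays. On WT arrays they were 6.46, 6.75, 6.58, 6.63 and 6.45 with IL-33, against 6.91, 7.40, 7.16, 7.05 and 6.96 untreated. The groups were apart, and Slc6a8 fell by 0.78 ± 0.11 in KO and by 0.52 ± 0.11 in WT cells (adjusted p = 1e-05 and 9.6e-04). Slc6a21, at group means of 3.42 to 3.75, rose in KO cells by 0.33 ± 0.11 and in WT cells by 0.30 ± 0.11 (adjusted p = 0.0188 and 0.0353). It exceeded the floor on 3 KO and 5 WT IL-33 arrays, but on only 1 KO and 2 WT untreated arrays. The gene was thus tested only because of the arrays in which it was high, and its rise is to be read with that limit. With arrays under the floor set to it, the rise of Slc6a21 was at least 1.12-fold in KO and at least 1.09-fold in WT cells. The KO call was lost without KO IL-33 replicate 4 or KO untreated replicate 4, and the WT call without WT IL-33 replicates 2, 3 or 4 or WT untreated replicates 2 or 4. The noradrenaline transporter Slc6a2 rose in WT cells by 0.31 ± 0.12 (adjusted p = 0.0435) and had 0.06 ± 0.12 in KO cells, and the difference between the genotypes, -0.25 ± 0.17, did not pass (adjusted p = 0.999). The WT call of Slc6a2 was lost without WT IL-33 replicates 2, 3, 4 or 5 or WT untreated replicates 2, 3 or 5.

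The other 5 tested Slc6 genes did not pass in either genotype. The taurine transporter Slc6a6 had -0.24 ± 0.14 in KO and -0.12 ± 0.14 in WT cells, and the KO change passed in the paired fit (adjusted p = 0.0105) and in a fit without the WT arrays (0.0208). The glycine transporter Slc6a9 had 0.04 ± 0.18 and 0.07 ± 0.18, the dopamine transporter Slc6a3 0.15 ± 0.12 and 0.12 ± 0.12, the proline transporter Slc6a7 -0.01 ± 0.08 and -0.02 ± 0.08, and Slc6a17 0.01 ± 0.12 and 0.03 ± 0.12.

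Other member genes also adjoin in the genome. Slc38a1, which fell, lies next to Slc38a2, which did not pass, and the next gene, Slc38a4, stayed at the floor. Slc36a3, Slc36a2 and Slc36a1 follow each other on chromosome 11 and none passed. Slc6a21 rose slightly beside Slc6a16 at the floor, and the pairs Slc6a18 and Slc6a19, and Slc6a20b and Slc6a20a, lay at the floor together.

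None of the 38 transporters passed the test between genotypes. With IL-33, 0 were called between KO and WT cells, where 2.21% of all tested genes were, and 7 had an unadjusted p under 0.05 (limma), where the background was 24.1%. The smallest adjusted p was 0.0992, for Slc7a7, at -0.37 ± 0.13. The other 6 with an unadjusted p under 0.05 were Slc43a2 (0.46 ± 0.18), Slc7a2 (0.34 ± 0.16), Slc36a1 (0.25 ± 0.10) and Slc36a2 (0.18 ± 0.07), with positive differences, and Slc1a5 (-0.39 ± 0.18) and Slc38a7 (-0.23 ± 0.09), with negative ones. The scaling of the arrays bears on the background here: 44.6% of the calls over all genes were higher in KO cells as deposited, and 70.3% after the further quantile normalization.

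Without IL-33, 0 transporters were called between KO and WT cells, where 0.0255% of all tested genes were, and 7 had an unadjusted p under 0.05 (limma), where the background was 12.9%. The largest positive differences were those of Slc6a4 (0.62 ± 0.21) and Slc7a2 (0.57 ± 0.16), both at an adjusted p of 0.383. Slc7a1 (-0.31 ± 0.15), Slc7a7 (-0.27 ± 0.13), Slc6a8 (0.25 ± 0.11), Slc36a3 (-0.19 ± 0.09) and Slc7a6 (-0.16 ± 0.07) were the others. The differences were not small for all genes: Slc43a3 had -0.81 ± 0.41, with a 95% interval of -1.68 to 0.05, and -0.80 ± 0.41 with IL-33, with an interval of -1.66 to 0.06. A missed threshold therefore does not show equal levels. No transporter had KO and WT arrays that were fully apart, whereas 3.32% of all tested genes did with IL-33 and 1.1% untreated.

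**Figure D4:**
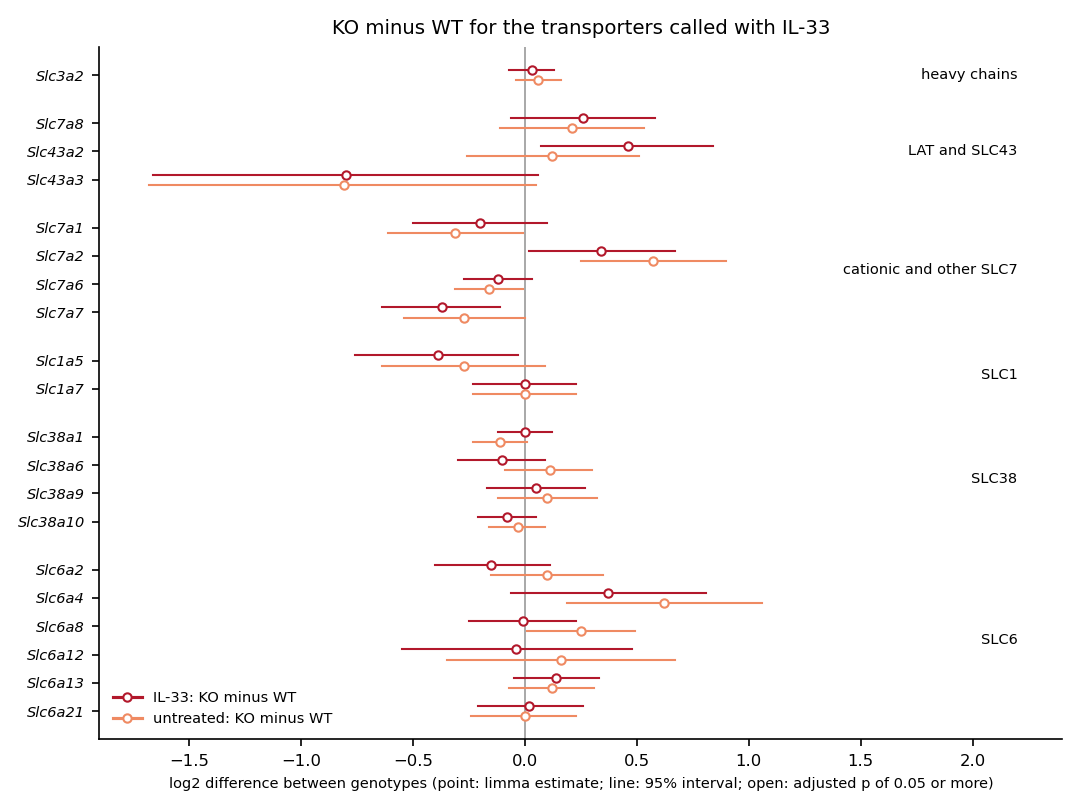
Log2 difference between genotypes (KO minus WT) of the 20 transporters called with IL-33 in either genotype, red with IL-33 and orange untreated, with the limma estimate as a point and its 95% interval as a line. All points are open because none passed an adjusted p of 0.05, and Slc43a3 at about -0.80 has the widest interval.

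WT mouse 2 decides some of these differences. Without both of its arrays, an alternative chosen after seeing that they correlated less with their group, 3 transporters were called between untreated KO and WT cells: Slc6a4 at 0.79 ± 0.18 (adjusted p = 0.0408), Slc7a2 at 0.63 ± 0.17 (0.0459) and Slc7a4 at -0.76 ± 0.19 (0.044). With IL-33 the calls without this mouse were Slc36a1 at 0.34 ± 0.09 (adjusted p = 0.0141), Slc1a5 at -0.54 ± 0.14 (0.0165) and Slc43a3 at -1.05 ± 0.36 (0.0496). Leaving out its IL-33 array alone called Slc36a1 (0.34 ± 0.09, adjusted p = 0.0211) and Slc1a5 (-0.54 ± 0.16, 0.0359). The shares of all tested genes called without these arrays are not given here, so the calls are not shown to be particular to transporters. WT mouse 2 had the highest WT value of Slc6a4 and the lowest WT value of Slc1a5 and Slc43a3, with and without IL-33.

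The response to IL-33 was also compared between genotypes directly. Of the 38 transporters none had a difference of responses that passed, where the background was 0% of all tested genes. In this fit, which does not pair the arrays of a mouse, 1, Slc36a2, had an unadjusted p under 0.05 (limma). The background was 4.83%. The difference for Slc36a2 was 0.24 ± 0.10 (adjusted p = 0.921). The paired fit also called 0 transporters in either direction, and 0% of all tested genes. Its unadjusted p-values are not given here. Over all 38 the KO minus WT difference in response ran from -0.26 for Slc6a8 to 0.37 for Slc7a4. For the 5 genes with a response of at least 2-fold in either genotype it was -0.23 for Slc7a2, with a 95% interval of -0.69 to 0.23, -0.25 for Slc6a4, with an interval of -0.86 to 0.36, and 0.33 for Slc43a2, with an interval of -0.21 to 0.88. It was -0.20 for Slc6a12, with an interval of -0.92 to 0.53, and 0.01 for Slc43a3, with the wide interval of -1.21 to 1.23. These intervals are from the fit without the pairing of mice, so they include the spread between mice. For Slc43a3 the SD of the change within mice was 0.16 in KO and 0.23 in WT mice.

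Genes around amino acid transport were counted from 4 lists, beside which stand the shares over all tested genes: 18.9% rose and 33.2% fell in KO cells, and 16.1% rose and 26.7% fell in WT cells. Among amino acid carriers of other families 2 rose and 5 fell in KO cells and 1 rose and 4 fell in WT cells, of 13 tested, so that 53.8% were called in KO and 38.5% in WT cells, near the 52.2% and 42.7% of all tested genes. Slc7a11, the cystine-glutamate exchanger, rose by 1.84 ± 0.15 and 1.59 ± 0.15 (KO and WT cells, adjusted p = 3.6e-09 and 4.9e-08). Mfsd12, which imports cysteine into lysosomes and melanosomes, fell by 1.16 ± 0.07 and 0.88 ± 0.07 (2.1e-11 and 1.7e-09). Ctns, the lysosomal cystine exporter, fell by 0.59 ± 0.09 and 0.56 ± 0.09 (1.7e-05 and 4.5e-05), and the mitochondrial ornithine carrier Slc25a15 by 0.54 ± 0.15 and 0.57 ± 0.15 (0.00435 and 0.00396).

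Of 32 tested genes of mTORC1 and lysosomal amino acid sensing, 5 rose and 20 fell in KO cells and 5 rose and 16 fell in WT cells. Falls thus made up 62.5% in KO and 50% in WT cells, against 33.2% and 26.7% of all tested genes, and rises 15.6% in both, against 18.9% and 16.1%. The median log2 change of this list was -0.31 in KO and -0.27 in WT cells, against -0.08 and -0.05 over all tested genes. Castor2, a relative of the arginine sensor Castor1, fell by 0.87 ± 0.12 and 0.77 ± 0.12 (KO and WT cells, adjusted p = 6e-06 and 3.5e-05), the stress-linked leucine sensor family gene Sesn1 by 0.87 ± 0.13 and 0.72 ± 0.13 (8.6e-06 and 1.2e-04), and the Ragulator subunit Lamtor4 by 0.82 ± 0.07 and 0.84 ± 0.07 (1.8e-08 and 2e-08). Seh1l, a subunit of the GATOR2 complex and of the nuclear pore, rose by 0.81 ± 0.11 and 0.52 ± 0.11 (2.4e-06 and 4.9e-04).

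Of 15 tested genes of the GCN2-ATF4 response to amino acid shortage, 5 rose and 6 fell in KO cells and 4 rose and 4 fell in WT cells. That is 73.3% called in KO and 53.3% in WT cells, against 52.2% and 42.7% of all tested genes. The transcription factor Cebpb rose by 1.09 ± 0.08 in KO and 1.03 ± 0.08 in WT cells (adjusted p = 4.2e-10 and 1.6e-09), and its relative Cebpg fell by 0.85 ± 0.11 and 0.68 ± 0.11 (2e-06 and 4.6e-05). Nupr1 rose by 0.49 ± 0.16 and 0.90 ± 0.16 (0.013 and 1.1e-04). Chac1, which degrades glutathione, fell by 0.88 ± 0.15 in KO cells (6.4e-05) and had -0.31 ± 0.15 in WT cells (0.106).

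Of 18 tested cytosolic aminoacyl-tRNA synthetases, which charge tRNAs with amino acids, 2 rose and 6 fell in KO cells and 2 rose and 4 fell in WT cells. Falls were 33.3% in KO and 22.2% in WT cells, near the 33.2% and 26.7% of all tested genes. The threonine enzyme Tars rose by 0.46 ± 0.13 and 0.50 ± 0.13 (KO and WT cells, adjusted p = 0.00547 and 0.00356) and the valine enzyme Vars by 0.47 ± 0.14 and 0.38 ± 0.14 (0.00908 and 0.0341). The serine enzyme Sars fell by 0.56 ± 0.09 and 0.36 ± 0.09 (1.8e-05 and 0.00204), and the glutamine enzyme Qars by 0.52 ± 0.08 and 0.37 ± 0.08 (1.8e-05 and 0.00101). No gene of the 4 lists was called between KO and WT cells (limma), untreated or with IL-33. With IL-33, 4 other carriers, 7 sensing genes, 4 GCN2-ATF4 genes and 10 synthetases had an unadjusted p under 0.05, of 13, 32, 15 and 18 tested, where the share over all tested genes was 24.1%. Untreated, the counts were 1, 7, 5 and 3 in the same order, where that share was 12.9%.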

How the data were processed

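Total RNA was labelled with the Affymetrix 3'IVT Express kit and hybridised to 1 array per sample, per the labels' protocols. The table deposited by the authors holds log2 values of 20630 probe sets on 20 arrays. Its background correction and normalization, and any genome build, were not given in the sources used here, so no step was undone and the values were taken as they stand. Differences between groups therefore depend on the authors' scaling, under which array medians lay between 4.25 and 4.32. Genes were named from the platform annotation (17826 probe sets with 1 symbol, 91 with several, 2711 with none), and 17675 of the first kind, all 61 members among them, matched a RefSeq gene.

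The 17771 genes were each represented by the probe set with the highest mean, and 11767 exceeded the array's 40th percentile on at least 5 arrays and were tested. A linear model with 1 mean per group over all 20 arrays (R 4.3.3 with limma 3.58.1, moderated by eBayes after lmFit, with 16 residual degrees of freedom) gave the log2 changes, and p was adjusted by Benjamini-Hochberg over all tested genes. The fit was tested on simulated data. No set test was run. Where any array of the dimmer group was under its percentile, a fold is a lower bound, with such arrays set to the percentile.

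The members, gene lists and alternatives were chosen with earlier results of these data known. Every tested member is described. Values per array are given for members called with a log2 change of at least 0.5 in either IL-33 comparison, and also for Slc3a2 and Slc7a5, chosen after their values were seen. Of each other list at most 4 called genes are named. Marker genes are named as checks of the cells. Lymphocyte, erythroid and megakaryocyte markers were also listed: 2 of 5 and 3 of 4 on the array were tested.

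Replicate numbers mark the mouse: the series text gives 5 mice per genotype, and IL-33 and untreated arrays of 1 number correlated at 0.262 to 0.783 in their deviations from group means, 10 of 10 best with their own number. Across genotypes, arrays of 1 number and treatment correlated at -0.181 to 0.601, and numbers were not paired there. This range overlaps the one within genotypes, and whether replicate numbers also mark a batch was not tested. The alternatives were no filter and a 60th percentile filter, a further quantile normalization, the mean of a gene's probe sets, a trended robust variance, the mouse as a random or as a fixed block (the fixed one is the paired fit of the report), only the compared groups, and leaving out arrays.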

Additional observations from a re-analysis of the deposited data

Results flagged for a closer look

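In 6 of the 80 groups of 5 arrays checked (4 groups for each of the 20 transporters called with IL-33), 1 array stood apart from the others by Dixon's test at the 95% level, which chance does in about 1 in 20 groups. Slc43a3 had 8.06 on WT IL-33 replicate 2, against 9.13 to 9.36 on the other 4 arrays. Slc6a12 had 5.83 on WT IL-33 replicate 3, against 4.36 to 4.77. Slc6a21 had 3.87 on WT IL-33 replicate 4, against 3.66 to 3.72. Slc38a6 had 7.07 on KO untreated replicate 4, against 6.73 to 6.82. Slc43a2 had 4.89 on KO untreated replicate 5, against 5.29 to 5.37. Slc1a7 had 4.71 on WT untreated replicate 1, against 4.44 to 4.51. Without the array named, the calls of Slc6a12, Slc38a6, Slc43a2 and Slc1a7 held, that of Slc43a3 held in WT cells, and that of Slc6a21 in WT cells was lost.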

How the results depend on the processing

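No call changed direction under any alternative run. Calls that held under every alternative and left-out array in which the gene was tested numbered 7 rises and 7 falls in KO cells, and 5 rises and 8 falls in WT cells, though Slc6a12 and, in KO cells, Slc1a7 were not tested with the 60th percentile filter. Of the WT rises 7 were called with the 60th percentile filter, which tests fewer genes, and 7 without both arrays of WT mouse 2 or of WT mouse 3. Leaving out 1 array at a time gave 8 to 11 rises and 8 to 10 falls in KO cells, and 7 to 9 rises and 8 to 11 falls in WT cells. It gave 0 to 1 transporter higher and 0 to 1 lower between KO and WT cells with IL-33, 1 of each without WT IL-33 replicate 2, and 0 in untreated cells and in the difference of responses. Without both arrays of WT mouse 2 the genotype calls were 1 higher and 2 lower with IL-33 and 2 higher and 1 lower untreated. For the fits that leave out arrays, no share over all tested genes is given. The paired fit with the replicate block (mouse as a fixed block) called 12 rises and 13 falls in KO cells and 12 rises and 12 falls in WT cells. That fit called 65.5% of all tested genes in KO and 57.8% in WT cells. Besides the changes given for each gene above, the block changed no other call. Over all genes the calls between KO and WT cells with IL-33 numbered 260, against 24 when only these groups were fitted, 152 with no filter, 444 with the 60th percentile filter and 514 with the mouse as a random block. The cause of these shifts was not tested. The WT calls of Slc7a1, Slc7a8, Slc43a3 and Slc6a2 were also lost with no filter (adjusted p = 0.0521, 0.0552, 0.0532 and 0.0575). With no filter other transporters, not named here, were newly called. In all, 8 rose and 9 fell in WT cells, and 12 rose and 9 fell in KO cells. Without the filter 28.3% of all genes were called in WT and 35.7% in KO cells. The WT call of Slc6a21 was lost after quantile normalization (0.0798) and with only the WT groups fitted (0.0528), and that of Slc7a1 with only the WT groups fitted (0.0858). Without both arrays of WT mouse 2 the WT calls of Slc1a7, Slc6a2, Slc6a21 and Slc7a1 were lost, and without those of WT mouse 3 those of Slc1a7, Slc6a2, Slc7a8 and Slc43a3. The table gives no background intensities, so the floor is a stand-in for detection, and changes near it are compressed.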
